A study of Homo sapiens with 12 samples.

Results

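HGF, the ligand hepatocyte growth factor, and MET, its receptor tyrosine kinase, were followed across 12 RNA-seq libraries labelled as YT cells, an established human lymphoid line described as NK-like. The members were found by gene symbol: 2 of the 17589 genes in the gene table, and the 13 of the 90572 transcripts in the transcript table that belong to them, 8 of HGF and 5 of MET. The pair was selected on its measured counts in these libraries, HGF for the gap between the fusion receptor groups and the other groups, so levels and transcript shares are descriptions and carry no test.

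All 4 groups of 3 libraries were made by infecting YT cells with a lentiviral vector and were sequenced without stimulation. Infected cells of every group were sorted for eGFP and expanded as populations. CTRL cells expressed eGFP alone. hnCD16 cells expressed a high-affinity, non-cleavable CD16a. FR1 and FR2 cells expressed that CD16a ectodomain and transmembrane part fused to intracellular signalling parts, which were 2B4, DAP10 and CD3ζ in FR1 and DAP10 and CD3ζ in FR2. The receptors were driven by the constitutive hEF1A promoter. Nothing in the labels says that the 3 libraries of a group came from separate infections, so spreads and p-values describe the differences between these libraries, which may be technical. The libraries held 17714566 to 18729019 estimated reads assigned to genes.

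HGF is secreted as an inactive single chain, pro-HGF, that serine proteases of the cell surface and plasma cut into the active form. Active HGF binds MET, whose phosphorylated tail recruits the adaptors GRB2 and GAB1 and drives the RAS-ERK, PI3K-AKT and RAC-PAK routes. HGF is best known as a product of mesenchymal cells and MET as a receptor of epithelial cells. Alternative splicing of HGF also gives short forms, NK1 and NK2, that keep the MET-binding amino-terminal and kringle regions and lack the rest of the chain. They have been described as MET antagonists or partial agonists.

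The HGF gene lies at chr7:81699010-81770438 on the minus strand of GRCh38, and MET lies at chr7:116672196-116798377 on the plus strand. The forms of HGF part at 3 places inside its coding sequence, and these places are shown because the transcript counts below depend on reads that tell them apart. Exon numbers are those of the full-length GENCODE model, which has 18 exons and 728 codons. The bases are from the GRCh38 reference, written 5′ to 3′ on the HGF strand.

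The deletion forms skip the 15 bases, or 5 codons, at the start of exon 5 that are in capitals in the full-length form, both lines spanning chr7:81752227-81757209:
Full-length, exon 4 into exon 5: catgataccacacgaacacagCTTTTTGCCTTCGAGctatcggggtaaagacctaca
Deletion form, exon 4 into exon 5: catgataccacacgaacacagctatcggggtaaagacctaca

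NK1 reads on past the end of exon 5 into the following intron, where the capitals mark 5 further coding bases and the stop codon TAA, so that its 210 codons end at chr7:81752112-81752140 as shown:
Full-length, exon 5 into exon 6: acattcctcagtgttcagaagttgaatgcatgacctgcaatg
NK1, end of the coding sequence: acattcctcagtgttcagaagGTAAATAA

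NK2 joins exon 7 to its own last exon, chr7:81742691-81742949, inside the intron before exon 8, where the capitals again mark 5 coding bases and TAA, which ends it at 290 codons, or 285 in its deletion form:
Full-length, exon 7 into exon 8: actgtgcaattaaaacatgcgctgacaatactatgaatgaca
NK2, end of the coding sequence: actgtgcaattaaaacatgcgAGACATAA

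The labelled cell type was checked before the comparisons, and the libraries fell into 2 pairs of groups. CPM are counts per 1000000 of a library size scaled by the TMM method. The 14 NK cell markers summed to 82.9 to 93.8 CPM where cells carried eGFP or hnCD16 and to 3968 to 4269 CPM where they carried a fusion receptor. GZMB (10 to 17 counts against 44542 to 49153), NKG7 (177 to 256 against 12711 to 14148) and PRF1 (5 to 13 against 6854 to 9722) carried most of this sum. Other NK markers were lower under the fusion receptors: GZMA had 395 to 464 counts in CTRL and hnCD16 and 79 to 123 in the FR groups, NCR3 101 to 109 and 0 to 17, CD7 535 to 646 and 13 to 25, and TYROBP 2 to 6 and 0. KLRD1 overlapped, at 202 to 267 and 225 to 282. CD28, a receptor tied to T cell activation, was counted on the NK list and had 51 to 74 counts in CTRL and hnCD16 and 1572 to 2258 in the FR groups. The 8 T cell markers showed the reverse, with 724 to 889 CPM in CTRL and hnCD16 against 36.4 to 43.2 CPM in the FR groups. The NK cell genes NCAM1 and NCR1 had at most 5 counts in any CTRL or hnCD16 library, against 21 to 42 and 436 to 535 in the FR groups. CD3D had 7757 to 9903 counts in CTRL and hnCD16 and at most 3 under either fusion receptor. CD3E fell less, from 1932 to 2828 counts to 595 to 717, and was the highest gene of the T cell list in the FR libraries. The 10 fibroblast markers, of which 8 were in the table, went from 1.46 to 2.75 CPM in CTRL and hnCD16 up to 300.1 to 329.6 CPM under the fusion receptors, but PDGFRA alone accounted for nearly all of it, and DCN and POSTN had at most 2 counts in any library. Epithelial markers lay at 5.16 to 6.58 CPM over all 4 groups. Myeloid markers were higher under the fusion receptors, at 3.15 to 4.43 CPM in CTRL and hnCD16, 5.84 to 7.08 under FR1 and 9.95 to 10.6 under FR2; CSF1R had 6 to 22, 30 to 38 and 92 to 103 counts there, while CD14, MPO and CD163 had at most 3 counts in any library. B cell markers, mostly PAX5 under the fusion receptors, went from 9.19 to 14.7 up to 38.3 to 47.4 CPM, and endothelial markers, mostly PECAM1, from 69.1 to 106 down to 1.21 to 1.94 CPM. FCGR3A, the gene of CD16a, had 1012 to 1132 counts under FR2, 559 to 567 under FR1, 453 to 480 under hnCD16 and 0 under eGFP. The labels name 1 line for all 12 libraries, and whether the FR libraries hold the same cells as the others was not tested. An effect of the receptor, another state of the cells and another cell population cannot be told apart in any difference between an FR group and CTRL or hnCD16, and all such values below are differences between these libraries. FR2 against FR1 is the comparison that leaves out the CTRL and hnCD16 libraries.

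HGF was nearly silent in CTRL and hnCD16 and abundant in FR1 and FR2. The CTRL libraries had 3, 0 and 4 HGF counts and the hnCD16 libraries 1, 3 and 0. The FR1 libraries had 9516, 10243 and 9715 counts and the FR2 libraries 11413, 10934 and 10942. Every FR library was far above every CTRL and hnCD16 library, and each FR2 library was above each FR1 library, whereas CTRL and hnCD16 overlapped.

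In CPM, HGF averaged 628 ± 10.2 under FR2 and 566 ± 22.8 under FR1, against 0.0722 ± 0.0825 under hnCD16 and 0.117 ± 0.104 in CTRL (SD, n = 3 each). From the summed counts, HGF was 4822-fold higher in FR1 than in CTRL (exact 95% counting interval 2340 to 11995) and 7882-fold higher than in hnCD16 (3078 to 28930). In FR2 it was 5350-fold higher than in CTRL (2596 to 13308) and 8745-fold higher than in hnCD16 (3415 to 32096). The intervals are wide because only 7 counts in CTRL and 4 in hnCD16 stand below the ratios, and they cover counting error only. Single libraries moved these ratios by more than 1.5 times. Against hnCD16, leaving out replicate 2 gave 21052-fold for FR1 (3778 to 831524) and 23356-fold for FR2 (4192 to 922524), and leaving out replicate 3 gave 5219-fold and 5791-fold. Against CTRL, the ratios were 3207-fold and 3558-fold without CTRL replicate 2 and 7461-fold and 8278-fold without CTRL replicate 3. Set against a floor of 3 counts in each hnCD16 library, HGF was higher by at least 3503-fold under FR1 and by at least 3886-fold under FR2. hnCD16 was 1.63-fold below CTRL with an interval from 0.416 to 7.61, so no difference between these groups was detectable at this depth. In bulk samples, more cells that express a gene and more RNA per cell cannot be told apart.

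Between the fusion receptors, the summed HGF counts were 1.11-fold higher in FR2 than in FR1 (interval 1.09 to 1.13). That interval covers counting error only and leaves out the choice of scaling. Scaled by total counts alone, HGF averaged 534 CPM in FR1 and 618 CPM in FR2, against 566 and 628 CPM with TMM. On the length-scaled TPM scale the difference was larger, with 421 ± 8.52 TPM in FR1 and 505 ± 10.4 TPM in FR2, and again the libraries did not overlap, at 412 to 429 and 498 to 517 TPM. Ranked by mean TPM among the 17589 genes, HGF was number 343 in FR1 and 271 in FR2, against 14342 in CTRL and 14822 in hnCD16.

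**Figure D1:**
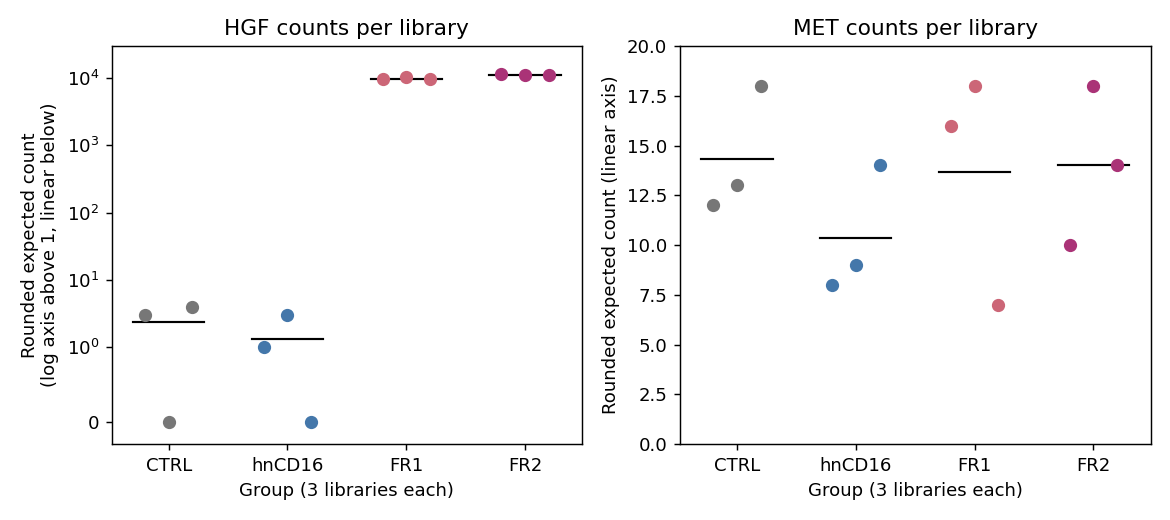
Rounded expected counts of HGF (left, log axis above 1 and linear below) and MET (right, linear axis from 0) in the 12 libraries. Each point is a library and each bar the mean of 3. HGF lies at 0 to 4 counts in CTRL and hnCD16 and at 9516 to 11413 in FR1 and FR2, while MET lies between 7 and 18 counts in all 4 groups.

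The 8 annotated HGF transcripts were all but absent outside FR1 and FR2, with at most 2.32 estimated counts in any CTRL or hnCD16 library. In FR1 and FR2, 6 of the 8 carried reads in number, and the other 2, the short predicted models XM_017012097 and XM_017012098, held at most 30.36 and 12.53 counts. The 6 were the full-length form (NM_000601), its deletion form (NM_001010932), a predicted long model (XM_011516115), NK2 (NM_001010931), its deletion form (NM_001010933) and NK1 (NM_001010934). RSEM divides reads from shared exons among the models by estimation, so every share is an estimate and not a count of junction reads. The parts particular to NK1 and NK2 lie inside introns of the full-length form. Reads of unspliced RNA there cannot be told apart from reads of these forms in the estimates, and their part was not tested.

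By reads, the 3 long forms held 51.5, 53.8 and 51.9% of HGF counts in the FR1 libraries and 50.2, 48.6 and 50.7% in the FR2 libraries. Both FR groups thus had about equal reads on long and truncated forms, with FR2 lower in long forms in every library. NK2 and its deletion form held 29.6, 26.6 and 28.5% in FR1 and 34.4, 35.9 and 34.0% in FR2. NK1 held 18.8, 19.6 and 19.5% in FR1 and 15.3, 15.0 and 15.3% in FR2. The FR groups did not overlap for any of the 3 shares: NK2 was higher and NK1 lower in FR2. The 3 shares make up nearly all HGF counts, so they depend on each other and are not separate observations. How often transcripts of other genes separate FR1 from FR2 was not computed, so these separations, here and in TPM below, are descriptions only. The means were 28.2 ± 1.52% and 34.8 ± 1.04% for NK2, and 19.3 ± 0.421% and 15.2 ± 0.159% for NK1 (SD, n = 3).

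Per molecule the picture shifted toward the truncated forms, because a long transcript yields more reads than a short one. The effective lengths implied by the deposited values were 5785 bases for the full-length form, 1872 for NK1 and 1151 for NK2. In TPM, NK1 and NK2 together made up 78.8 ± 0.865% of HGF in FR1 and 80.9 ± 0.408% in FR2, and NK2 alone 55.5 ± 1.81% and 63.8 ± 0.849%. The long forms were 21.1 ± 0.937% in FR1 and 18.7 ± 0.693% in FR2. By these estimates, NK2 was the most abundant kind of HGF transcript in all 6 FR libraries.

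The forms differed in how far they moved between FR1 and FR2. The NK2 pair stood at 234 ± 3.27 TPM in FR1 and 322 ± 7.07 TPM in FR2, a ratio of 1.38 with no overlap between libraries. The long forms stood at 89.0 ± 5.66 and 94.7 ± 4.22 TPM, a ratio of 1.06, and their libraries overlapped. NK1 went the other way, at 98.3 ± 5.99 TPM in FR1 and 86.5 ± 3.37 TPM in FR2, a ratio of 0.88, with FR1 at 92.1 to 104 and FR2 at 83.0 to 89.7. The gain of HGF from FR1 to FR2 in TPM lay mostly in NK2.

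The 5-codon deletion was read in both the long and the NK2 forms. It made up 45.9, 45.3 and 43.6% of the counts of the named full-length pair in the FR1 libraries and 44.8, 45.8 and 45.9% in the FR2 libraries. Of the NK2 pair it made up 30.3, 27.8 and 21.3% in FR1 and 25.9, 29.9 and 30.5% in FR2. FR1 and FR2 overlapped for both. The first of these shares leaves out the predicted long model XM_011516115, and whether that model carries the deletion is not known here. Counted over all 3 long forms, a denominator added after seeing the data, the deletion form held 27.6, 26.6 and 17.6% in FR1 and 24.9, 22.0 and 22.0% in FR2, so no order between the long and the NK2 forms can be read. FR1 replicate 3 differed from the other FR1 libraries in how the long reads were split, with 30.9% of HGF counts on the predicted model XM_011516115 against 20.5 and 22.3%, while its long forms together were within the FR1 range.

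**Figure D2:**
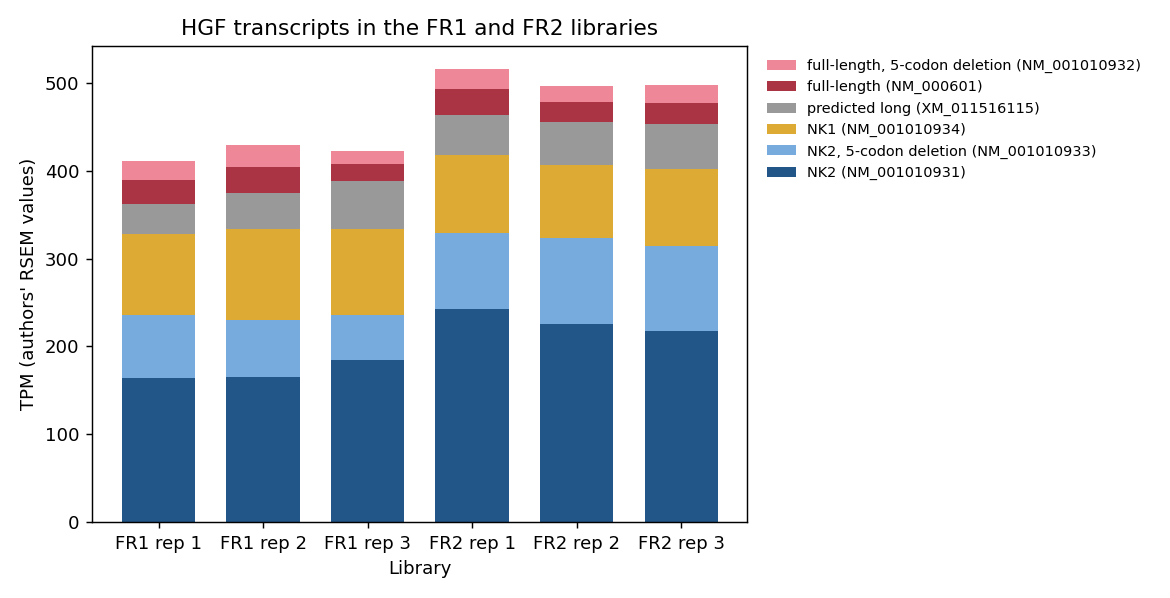
TPM of the 6 HGF transcripts that carried reads in number, stacked for each FR1 and FR2 library; the y axis starts at 0. The NK2 forms (blue) take 229.9 to 236 TPM in FR1 and 315 to 329 TPM in FR2, NK1 (yellow) is lower in FR2, and the long forms (grey and red) stay at 83.6 to 97.8 TPM.

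MET was barely expressed and no group stood apart. Its counts were 12, 13 and 18 in CTRL, 8, 9 and 14 in hnCD16, 16, 18 and 7 in FR1, and 10, 18 and 14 in FR2. All 4 ranges overlapped, and every library was above the floor of 3 counts. The mean CPM, from the highest group to the lowest, were 0.793 ± 0.229 (FR2), 0.789 ± 0.342 (FR1), 0.720 ± 0.153 (CTRL) and 0.555 ± 0.165 (hnCD16), and the libraries of each neighbouring pair in this order overlapped (SD, n = 3 each).

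At 7 to 18 counts the precision for MET was low. The FR2 to hnCD16 ratio was 1.42 with an exact 95% counting interval of 0.874 to 2.34, and the FR1 to hnCD16 ratio was 1.41 (0.866 to 2.33). Against CTRL the ratios were 1.09 for FR1 (0.694 to 1.72) and 1.10 for FR2 (0.701 to 1.72). Changes of the order seen for HGF lie far outside these intervals, but a change of up to about those upper bounds was not detectable at this depth. Without FR1 replicate 3, the library with 7 counts, the FR1 to hnCD16 ratio was 1.77 (1.05 to 2.97). The 5 MET transcripts were too sparse for shares: none was above 0 in all 12 libraries and the highest value was 13.92 estimated counts.

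Set among other growth factor systems, HGF led the ligands and MET sat in the middle of the receptors. Of 53 ligands of receptor tyrosine kinases in the table, HGF included, HGF was number 1 by mean TPM in FR1 and FR2 and number 32 and 37 in CTRL and hnCD16. The next ligand in FR1 and FR2, FLT3LG, stood at 17.6 and 17.5 TPM, so HGF was 23.9 and 28.9 times as high. In CTRL and hnCD16 the leading ligand was VEGFB at 16.4 and 12.2 TPM. Of 54 receptor tyrosine kinases, MET was number 24 to 28 in the 4 groups at 0.173 to 0.237 TPM, and the leading receptor was EPHB6 in CTRL and hnCD16 (111 and 78.0 TPM) and PDGFRA in FR1 and FR2 (83.7 and 88.9 TPM).

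**Figure D3:**
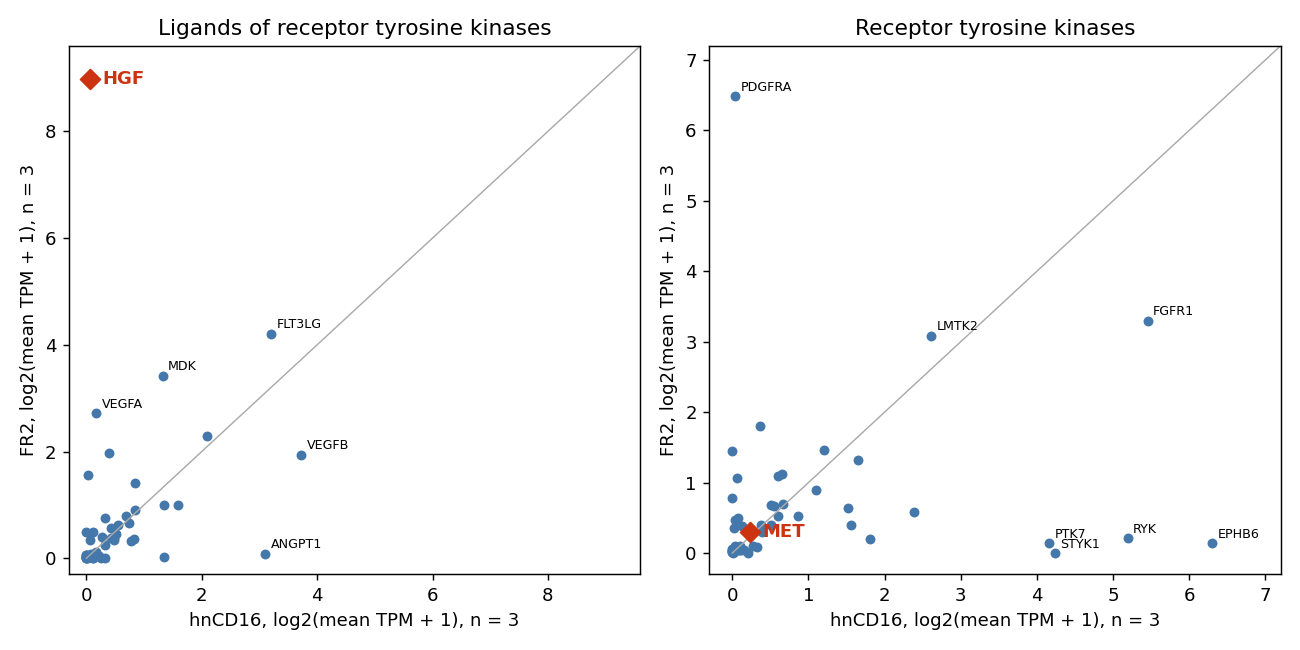
Mean TPM in hnCD16 (x) and FR2 (y), each as log2(TPM + 1) over 3 libraries, for ligands (left) and receptor tyrosine kinases (right); the line marks equal values and the red diamonds HGF and MET. HGF lies at 0.0433 TPM in hnCD16 and 505 TPM in FR2, above every other ligand in FR2, and MET lies near the line at 0.173 and 0.230 TPM.

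The other genes of the pathway were tested with edgeR's quasi-likelihood test over 13657 genes, and a gene was called when its log2 fold change reached 1 in size and its p, adjusted by Benjamini-Hochberg, did not exceed 0.05. Of 109 genes on 8 HGF/MET lists, 107 were in the table and 86 passed the filter on low counts. FR2 against hnCD16 called 45 of the 86 (52.3%, against 39.5% of all genes tested), 29 of them higher (background 19.6%) and 16 lower (19.8%). FR1 against hnCD16 called 44 (background 38.3%), 29 higher (18.7%) and 15 lower (19.6%). FR2 against CTRL called 43 (background 38.2%), 26 higher (18.7%) and 17 lower (19.6%). FR1 against CTRL called 40 (background 38.0%), 24 higher (18.3%) and 16 lower (19.8%). In FR2 against hnCD16, 12 of the 45 had at most 3 counts in every library of the lower group and so passed the filter through the other group alone. With at least 10 counts required in every library, 23 of 64 list genes were called there (35.9%, against 29.3% of all genes tested). These comparisons share their libraries in part, so they do not count as separate observations. hnCD16 against CTRL called 0 with edgeR and 0 with DESeq2 (background 0.527%, with 0.212% higher and 0.315% lower). Without the fold threshold, 42 of the 86 had an adjusted p of at most 0.05 in edgeR (48.8%, near the 43.0% of all genes tested). FR2 against FR1 called 5 (5.81%, against 1.93%), 3 higher (1.49%) and 2 lower (0.439%). The median log2 fold change of the 86 in FR2 against hnCD16 was 0.34, and that of all genes tested -0.03.

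**Figure D4:**
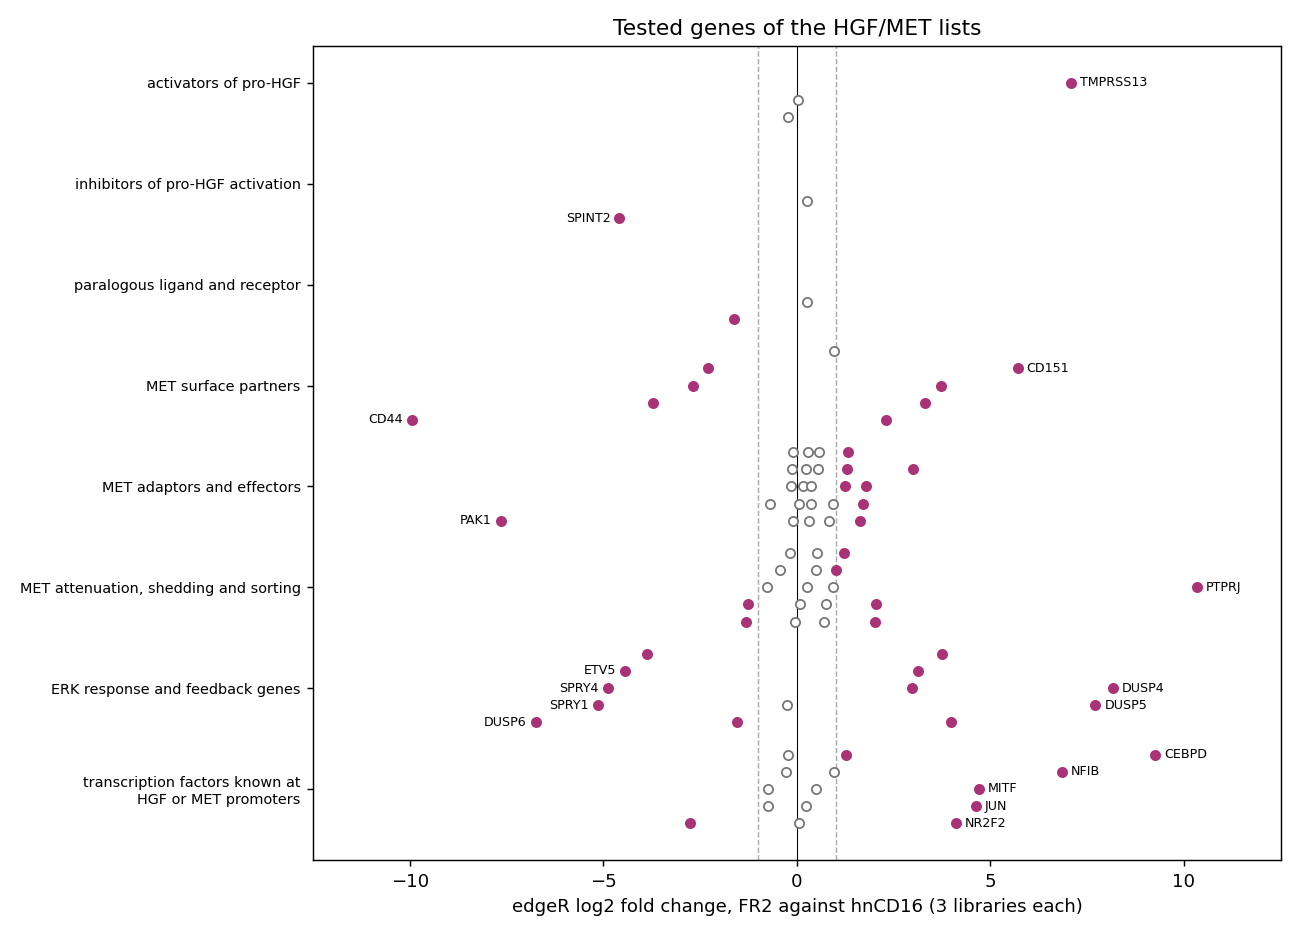
edgeR log2 fold change in FR2 against hnCD16 (3 libraries each) for the 86 tested genes of the 8 lists, one list per row, with vertical spread added only to separate points. Filled points passed both thresholds and dashed lines mark a log2 fold change of -1 and 1; 29 filled points lie to the right and 16 to the left, and genes with a log2 fold change of at least 4 in size are named.

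Of the 10 listed proteases that activate pro-HGF, 9 were in the table and 3 passed the filter. HGFAC, the HGF activator of plasma, had at most 1 count in any library, HPN (hepsin) at most 1, PLAU (urokinase) at most 2 and ST14 (matriptase) at most 3. The coagulation proteases F11 and F12 were tested and called in no comparison, with 1.17 to 1.45 and 1.89 to 2.64 CPM as group means. KLKB1, plasma prekallikrein, was too low for the test but not at the same level in all groups, with 9 to 12 counts in hnCD16, 7 to 9 in CTRL, 0 to 2 in FR1 and 1 to 2 in FR2, which was 7.14-fold lower in FR2 than in hnCD16 (counting interval 2.52 to 27.9). TMPRSS13, a membrane serine protease, had 14 to 20 counts under FR2 and 4 to 12 under FR1, and 0 in every other library. It was at least 17.2-fold higher in FR2 than in hnCD16 against a floor of 3 counts over the group. It passed the filter only through the groups in which it is high, so its call adds nothing to these counts. These 4 genes are named after their values were seen.

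The inhibitor SPINT2, which blocks hepsin and the HGF activator at the cell surface, fell in both FR groups. The eGFP libraries held 957 to 1068 counts and the hnCD16 libraries 1038 to 1155, but those of FR1 only 36 to 41 and those of FR2 42 to 43. Relative to hnCD16 this was a log2 fold change of -4.70 ± 0.10 (SE) for FR1 and -4.59 ± 0.10 for FR2, with a Benjamini-Hochberg adjusted p of 1.1e-17 in edgeR's quasi-likelihood test for FR2. SPINT1, its close relative, had at most 4 counts in any library.

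The nearest relatives of the pair did not follow HGF. MST1, the ligand paralogous to HGF, stood between 4.80 ± 0.59 CPM (FR1) and 6.07 ± 0.31 CPM (FR2) and was called in no comparison; it shares reads with near-identical copies elsewhere in the genome, so its counts are uncertain. MST1R, the receptor paralogous to MET, had 9 to 15 counts in CTRL and hnCD16 and 2 to 6 in FR1 and FR2. It fell in FR2 against hnCD16 (log2 fold change -1.63 ± 0.45) and against CTRL in both FR groups, and FR1 against hnCD16 gave -0.98 ± 0.41, just short of the fold threshold. With 3 counts in every FR2 library, MST1R passed the filter in the FR2 comparisons through other groups alone. Its calls there add nothing to the counts of called genes.

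Of the 12 surface proteins listed as partners of MET, 9 were tested and 8 were called in FR2 against hnCD16 (88.9%, against 39.5% of all genes tested), 4 higher and 4 lower. CD44 and PLXNB1 had at most 3 counts in every FR2 library. They passed the filter through other groups alone, so their calls add nothing to this share. CD44, whose longer splice forms present HGF to MET, had 722 to 850 counts in CTRL and hnCD16 and 0 to 2 in FR1 and FR2. From the summed counts it was 1176-fold lower in FR2 than in hnCD16 (counting interval 325 to 9715). FR2 replicate 1 holds the few counts left, and without it CD44 was at least 520-fold lower against a floor of 3 counts over the group. ICAM1, reported to stand in for CD44 as a MET partner, rose instead, from 32 to 36 counts in hnCD16 to 395 to 449 in FR1 and 396 to 452 in FR2 (log2 fold change 3.72 ± 0.11 and 3.71 ± 0.11).

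The other partners split in the same way. The tetraspanin CD151 rose from 0.916 ± 0.24 CPM in hnCD16 to 48.1 ± 1.5 CPM in FR2 (log2 fold change 5.70 ± 0.14). ITGA6, the laminin receptor subunit integrin alpha 6, fell from 68.2 ± 2.9 to 5.17 ± 0.09 CPM (-3.72 ± 0.07), while its partner ITGB4 was among the genes that rose. PLXNB2, a semaphorin receptor, fell from 35 to 47 counts in hnCD16 to 4 to 10 in FR2 (-2.29 ± 0.29). NRP1, a co-receptor for several growth factors, had at most 2 counts in any library.

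Of 24 adaptors and effectors downstream of MET that were tested, 8 were called in FR2 against hnCD16, 7 higher and 1 lower. This is 33.3%, near the background of 39.5%, and is no result about the list. CRK, an adaptor that links GAB1 to RAP1, rose from 637 to 730 counts in hnCD16 to 4118 to 4205 under FR1 and 5087 to 5412 under FR2 (log2 fold change 2.70 ± 0.06 and 2.99 ± 0.06). GRB2, the adaptor that carries SOS to the receptor, rose by 1.29 ± 0.06 on the log2 scale in FR2 against hnCD16, while the value against CTRL, 0.85 ± 0.06, was below the fold threshold. INPPL1 (SHIP2), a lipid phosphatase that binds MET, rose by 1.80 ± 0.08. PAK1, a kinase activated by RAC, fell from 1437 to 1590 counts in hnCD16 to 4 to 16 in FR1 and 5 to 8 in FR2 (-7.17 ± 0.15 and -7.66 ± 0.16). Its counting intervals, 101 to 218-fold lower in FR1 and 134 to 332-fold lower in FR2, are wider than these SEs imply. GAB1, the main docking protein of MET, had at most 6 counts in any library and was not tested.

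Genes that switch MET off, shed it or sort it gave 7 calls among 18 tested in FR2 against hnCD16, 5 higher and 2 lower, and the 38.9% is near the background of 39.5%. PTPRJ, a receptor phosphatase that acts on MET, had 964 to 993 counts under FR2 and 926 to 1026 under FR1 against 0 to 3 elsewhere, and was 1546-fold higher in FR2 than in hnCD16 (counting interval 427 to 12769). PTPRJ passed the filter only through the groups in which it is high. LRIG1, a membrane protein that lowers receptor kinase levels, rose by 2.03 ± 0.11 on the log2 scale and CBL, the ubiquitin ligase of MET, by 1.21 ± 0.05. CBL did not reach the fold threshold against CTRL (0.66 ± 0.05). SH3KBP1 (CIN85), which links CBL to endocytosis, fell by 1.31 on the log2 scale (SE 0.06). The sheddases ADAM10 and ADAM17 were not called, with log2 fold changes of -0.06 ± 0.07 and -0.44 ± 0.05 in FR2 against hnCD16.

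Genes known to respond to or limit ERK signalling moved in both directions. Of 13 tested, 12 were called in FR2 against hnCD16 (92.3%, against 39.5% of all genes tested), 6 higher and 6 lower, and the list's median log2 fold change was -0.24. DUSP4, SPRY2 and SPRY4 had at most 3 counts in every library of the lower group. They passed the filter through the other group alone, so their calls add nothing to this share. DUSP4 and DUSP5, phosphatases of nuclear ERK, rose from 2 to 5 counts in hnCD16 to between 575 and 938 under FR1 and between 655 and 873 under FR2. DUSP6, the phosphatase of cytoplasmic ERK, moved the opposite way, from 664 to 722 counts in hnCD16 to 1 to 6 in FR1 and 4 to 9 in FR2 (log2 fold change -7.42 ± 0.18 and -6.75 ± 0.16). The counting intervals of DUSP6, 98.6 to 355-fold lower in FR1 and 69.4 to 186-fold lower in FR2, are again wider. Both the DUSP and the SPRY family therefore split: DUSP4, DUSP5 and SPRY2 rose, and DUSP6, SPRY1 and SPRY4 fell.

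Among transcription factors known to bind the HGF or MET promoter, 15 were tested and 7 were called in FR2 against hnCD16, 6 higher and 1 lower, or 46.7% beside a background of 39.5%. CEBPD, MITF, NFIB and NFIX had at most 3 counts in every library of the lower group. They passed the filter through the other group alone, so their calls add nothing to this share. CEBPD, of the C/EBP family that binds the HGF promoter, rose from 1 to 3 counts in hnCD16 to 997 to 1133 in FR1 and 1287 to 1547 in FR2 (log2 fold change 8.88 ± 0.17 and 9.26 ± 0.17). At 1 to 3 counts in hnCD16 these SEs understate the uncertainty. NFIB, of the nuclear factor I family, rose from 0 to 1 counts in hnCD16 to 34 to 46 in FR1 and 47 to 54 in FR2. MITF, which can drive MET in melanocytes, rose from 0 to 3 counts to 63 to 73 in FR1 and 34 to 39 in FR2.

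Only 5 of the 86 list genes were called in FR2 against FR1, and they are named here after their values were seen. ETV5, an ERK-induced factor, had 16 to 22 counts in FR1 and 41 to 44 in FR2 (log2 fold change 1.15 ± 0.16). SPRY1, a feedback inhibitor, had 8 to 16 and 18 to 25 (1.03 ± 0.26). NR2F2 (COUP-TFII) had 46 to 54 counts under FR2 and 121 to 137 under FR1 (-1.37 ± 0.19). The remaining calls rest on few reads: PLXNB1 had 0 counts in FR1 and 2 to 3 in FR2, and SPRY4 1 to 5 and 0 to 1. Without FR1 replicate 1 neither SPRY1 nor SPRY4 was called, SPRY1 was also lost without FR1 replicate 3 or FR2 replicate 2, and SPRY4 without FR1 replicate 2, FR2 replicate 1 or FR2 replicate 3. SPRY4 was not called with DESeq2 either. Fitted on the FR1 and FR2 libraries alone, PLXNB1 and SPRY4 were not called and TMPRSS13 was. CD44, SPINT2, PAK1, DUSP6 and PTPRJ were not called in this comparison.

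Other receptor tyrosine kinases and ligands moved in both directions. Of 32 receptors tested, 20 were called in FR2 against hnCD16 (62.5%, against 39.5% of all genes tested), 10 higher and 10 lower. PDGFRA rose from 0 to 3 counts in hnCD16 to 5126 to 5237 in FR1 and 5482 to 5624 in FR2, PDGFRB from 0 to 60 to 75 in FR1 and 97 to 105 in FR2, and STYK1 fell from 498 to 537 counts to 0 to 1. Of 26 ligands tested, 12 were called (46.2%), 7 higher and 5 lower. FGF9 rose from 0 to 1 counts in hnCD16 to 87 to 95 in FR2. ANGPT1, the ligand of TEK, fell from 255 to 356 counts to 2, and GAS6, the ligand of AXL, from 31 to 45 counts to 0 to 1. Each gene named in this paragraph had at most 3 counts in every library of its lower group. Its call therefore adds nothing to these shares.

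The genes beside HGF on chromosome 7 were near silent in all groups. The next protein-coding gene on one side, SEMA3C, 776.7 kb away, had at most 1 count in any library. On the other side CACNA2D1, a calcium channel subunit 176.0 kb away, had 7 to 14 counts under FR1 and 8 to 12 under FR2, with 4 to 5 under hnCD16 and 2 to 9 under eGFP. It was called in FR2 against hnCD16 (log2 fold change 1.25 ± 0.48) but not with DESeq2 (1.29) nor without hnCD16 replicate 1, hnCD16 replicate 2 or FR2 replicate 2 (lowest 1.10). Further out, PCLO, 983.6 kb away, had 0 counts in every CTRL and hnCD16 library. It had at most 8 counts in FR1 and 9 in FR2 and was too low for the test. Beside MET, CAV1 had at most 6 counts, and CAPZA2, a capping protein gene 12.7 kb away, stood between 141 ± 3.3 CPM (CTRL) and 272 ± 6.0 CPM (FR1) without reaching the fold threshold in FR2 against hnCD16 (0.42 ± 0.04). Within 1000 kb of MET, 6 genes were tested and 2 were called in FR2 against hnCD16: TFEC, a relative of MITF 512.3 kb away, with 2 to 6 counts in hnCD16 and 1981 to 2181 in FR2, and ST7, 154.9 kb away, with 197 to 222 and 614 to 657.

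Likeness to the pair was measured as Pearson's r of log2(CPM + 1) over the 12 libraries, as a description. The 5 genes most like HGF were MACROD2, CADM1, GOLIM4, CCDC50 and CACNA2D3, with r of 0.9998 to 0.9999. This says little of HGF itself, since 1009 of 13656 genes (7.39%) had r over 0.99, the 12 points fall into the same pairs of groups for all of them, and none of the 5 stayed among the leading 5 with a pseudocount of 0.1 CPM. MET had no gene over 0.9. Its nearest were PDE4C, MMP19, CCNJL, PRR23A and OR7G2, with r from 0.751 to 0.811 over libraries in which MET had 7 to 18 counts.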

How the data were processed

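Processed tables of 12 YT cell libraries were used, 3 per group, grouped by the labels. The authors depleted ribosomal RNA (the labels' protocol also names oligo(dT) beads), trimmed reads with SOAPnuke, mapped them with HISAT2 2.1.0 to GRCh38.p13 and quantified with RSEM 1.3.1; the submitters' processing notes also list Bowtie2 2.3.4.3 and DESeq2 1.4.5. The deposited expected counts are estimates that need not be whole, and they sum to 17714566 to 18729019 per library. The deposited TPM values are scaled by transcript length and sum to 1000000 per library. The deposited transcript FPKM values were used only to obtain effective lengths. Strand use in counting is not given in the sources used here, so reads from overlapping genes on opposite strands cannot be told apart. 36 columns of per-sample values were not used.

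After rounding the expected counts to integers, the test was edgeR 4.0.16 in R 4.3.3 (TMM, filterByExpr by group, 1 quasi-likelihood fit of all 12 libraries, Benjamini-Hochberg adjustment over 13657 genes), with a log2 fold of 1 and an adjusted p of 0.05 as thresholds, as in the study's methods. DESeq2 1.42.0, other normalizations, filters, a replicate block and leaving out single libraries were alternatives. In simulated FR2 against hnCD16 data over 12588 genes edgeR called 200 of 200 changed genes (log2 fold of 2 in size) and 3 unchanged genes. The changed genes were drawn only from genes well above the floor in hnCD16, with 1 dispersion of 0.003 and only these groups fitted. Far fewer genes changed there than were called in the real comparison. The simulation therefore does not bear on calls of genes near 0 in a group. HGF and MET were among the genes of this fit and of the background shares, but no test result is given for them. Folds of low genes are ratios of summed counts over TMM-scaled sizes with exact 95% Clopper-Pearson intervals. Each SE of a log2 fold change is its size divided by the square root of the test's F statistic. For genes near 0 in a group this understates the uncertainty. Replicates of a group differed by more than sampling noise (chi-square per gene 2.11 to 13.7).

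HGF and MET and the lists (8 HGF/MET lists, receptor kinases, ligands, cell markers) were chosen with earlier results of these data known. Named list genes were a standing set plus the 3 of largest fold in FR2 against hnCD16 in each list among those called with a mean of at least 1 CPM, the next protein-coding genes and the 5 most like each member. FLT3LG, VEGFB, EPHB6, KLKB1, F11, F12, TMPRSS13, ITGB4, SPRY2, NFIX, PCLO, TFEC, ST7, CFTR and the 5 genes called in FR2 against FR1 were named after their values were seen. RefSeq transcripts were matched to GENCODE v44 models by their known forms.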

Additional observations from a re-analysis of the deposited data

How the results depend on the processing

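The counts of called pathway genes depended mainly on the thresholds. With at least 10 counts required in every library, which leaves out genes near 0 in either group, the calls were 21 for FR1 against CTRL, 22 for FR2 against CTRL, 23 for FR1 against hnCD16, 23 for FR2 against hnCD16 and 1 (ETV5) for FR2 against FR1, out of 64 list genes tested; of the 10758 genes tested in all this setting called 27.6, 27.6, 27.8, 29.3 and 0.679%. With no fold threshold they were 70, 73, 72, 76 and 32, and 42 for hnCD16 against CTRL, of 86, while 79.9, 80.2, 79.1, 80.1, 36.2 and 43.0% of all genes passed. Leaving out single libraries gave 0 to 2 calls for hnCD16 against CTRL, the 2 being NR2F1 and PLXNB1 without CTRL replicate 3 and NR2F2 and PLXNB1 without hnCD16 replicate 2; NR2F1 was the 1 call without hnCD16 replicate 3. Leaving out single libraries gave 39 to 43, 42 to 43, 43 to 45, 44 to 47 and 4 to 5 calls for the other comparisons in the order above. Fitting only the 2 groups compared, an alternative added after seeing the data, gave 36, 39, 41, 44 and 4. The same replicate numbers did not deviate together in every comparison (mean correlation from -0.0298 to 0.131), so the numbers were not taken as pairs; in a fit with a replicate block the calls were 0, 40, 43, 44, 45 and 5, and the called genes were the same. MITF in FR2 against FR1 passed the fold threshold without FR1 replicate 2 or FR2 replicate 2 (lowest log2 fold change -1.03), ANGPT1 was called there with the block (-1.47), and CACNA2D1 was lost with DESeq2 (1.29) and without any 1 of hnCD16 replicate 1, hnCD16 replicate 2 and FR2 replicate 2 (lowest 1.10). Scaling by total counts alone put HGF in FR1 at 534 CPM. As shares of TPM, the long forms were 21.1% in FR1 and 18.7% in FR2, NK1 23.3% and 17.1%, and NK2 55.5% and 63.8%. The cause of these shifts was not tested, except that TPM divides by transcript length and the stricter filter tests fewer genes. MET at 7 to 18 counts and HGF at 0 to 4 counts in CTRL and hnCD16 are limited by depth.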
